A study of Mus musculus with 4 samples.

Results

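The genes described here are 7 ion channel genes that set the electrical excitability of the skeletal muscle membrane: Scn4a, Clcn1, Kcnj2, Kcnj11, Kcnn3, Kcna7 and Kcnh1. They were taken by symbol, and each had 1 entry in every table, 7 of 24850 named entries in the total RNA tables and 7 of 24992 in the polyA tables. Each entry gave an FPKM (fragments per kilobase of transcript, scaled to library size, so a level per length) with the 95% interval that Cufflinks assigns to it. The cells were C2C12, a mouse myoblast line that leaves the cell cycle and fuses into myotubes when the serum is lowered in differentiation medium (DM). The MB library (DM -24 h) and the MT library (DM 72 h) were made from total RNA after removal of ribosomal RNA. The si-NC and si-hnRNPL libraries were made from polyA RNA of cells transfected with a scrambled control siRNA or with siRNA against hnRNPL, an RNA-binding protein, and kept in DM for 48 h. Every condition had 1 library, so no difference below has a replicate check, no test was run, and each interval covers only the error of counting and assigning fragments in its library.

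A skeletal muscle fibre fires when voltage-gated sodium channels open. Chloride channels and inwardly rectifying potassium channels hold the membrane at its resting potential and bring it back there after the action potential. Voltage-gated and calcium-activated potassium channels shape repolarization and firing, and potassium channels that open as ATP falls couple excitability to metabolism. In cultured myoblasts, inward rectifiers and channels of the Kcnh family are also known to make the membrane potential more negative before the cells fuse. Inherited defects of SCN4A and CLCN1 cause myotonia, and defects of KCNJ2 cause a periodic paralysis with cardiac arrhythmia.

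The bases directly upstream of the annotated start are shown for the 3 members that reached an FPKM of 1 in any library, Kcnj2, Kcnn3 and Scn4a, and for Clcn1, the member with the most matches to the motifs searched. Each run covers the 250 bases before the start in mm9, on the strand of the gene, 5′ to 3′. Capitals mark the E-box CAGCTG in Kcnj2 and, in Clcn1, the E-box CACCTG and a match to the MEF2 motif.
Kcnj2, chr11:110927228-110927477, plus strand: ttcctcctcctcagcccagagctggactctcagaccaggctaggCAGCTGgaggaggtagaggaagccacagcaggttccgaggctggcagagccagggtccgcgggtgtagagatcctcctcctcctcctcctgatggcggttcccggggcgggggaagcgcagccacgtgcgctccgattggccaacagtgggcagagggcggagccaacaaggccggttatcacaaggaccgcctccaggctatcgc
Kcnn3, chr3:89323836-89324085, plus strand: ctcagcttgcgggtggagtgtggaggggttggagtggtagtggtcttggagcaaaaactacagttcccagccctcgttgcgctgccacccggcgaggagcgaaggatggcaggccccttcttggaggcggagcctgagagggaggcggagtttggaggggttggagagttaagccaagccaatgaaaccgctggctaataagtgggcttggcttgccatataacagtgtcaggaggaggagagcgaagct
Scn4a, chr11:106210705-106210954, minus strand: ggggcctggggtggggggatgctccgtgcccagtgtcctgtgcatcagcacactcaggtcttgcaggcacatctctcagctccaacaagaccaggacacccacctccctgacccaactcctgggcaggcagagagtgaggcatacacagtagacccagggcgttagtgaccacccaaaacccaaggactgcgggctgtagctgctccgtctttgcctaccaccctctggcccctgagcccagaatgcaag
Clcn1, chr6:42236434-42236683, plus strand: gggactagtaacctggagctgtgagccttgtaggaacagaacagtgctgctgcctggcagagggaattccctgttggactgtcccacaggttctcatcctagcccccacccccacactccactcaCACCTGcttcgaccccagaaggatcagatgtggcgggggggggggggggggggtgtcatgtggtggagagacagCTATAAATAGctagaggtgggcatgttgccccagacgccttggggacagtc

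Both strands were searched. CAGCTG stood in the window of 1 of the 7 members, Kcnj2, starting 206 bases before the start, and in 12.2% of the upstream windows of 18983 protein-coding genes. CAGGTG, which reads CACCTG on the other strand, stood in 1 member, Clcn1, starting 125 bases before the start, and in 16.4% of all windows. The MEF2 motif was matched in 1 member, Clcn1, 51 bases before the start, and in 2.66% of all windows. TATAAA was matched in 1 member, Clcn1, where it lies inside the MEF2 match, and in 11.7% of all windows. The windows of the other 5 members held none of these motifs. The RefSeq promoter table (build GRCm38.p6) held 6 of the 7 members, and the same 250 bases stood in all 6.

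The members are spread over 5 chromosomes. In the GENCODE annotation of mm9, Scn4a lies at chr11:106179907-106210704 on the minus strand with 26 exons, Kcnj2 at chr11:110927478-110938139 on the plus strand with 2 exons, and Clcn1 at chr6:42236684-42264655 on the plus strand with 25 exons. Kcnn3 lies at chr3:89324086-89476416 on the plus strand with 8 exons, and Kcnh1 at chr1:194014659-194334041 on the plus strand with 12 exons. Kcna7 (chr7:52661330-52666752, plus strand, 2 exons) and Kcnj11 (chr7:53352493-53356134, minus strand, 1 exon) are the most compact. The summed exon length of the members ran from 3075 bases in Kcnj11 to 7321 in Kcnh1, all above the median of 2974 bases over the protein-coding genes, and Kcnj2 had the lowest exon GC content at 41.2% against a median of 49.2%.

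The libraries differed in depth. The intervals of the FPKM values imply 59960200 fragments in MB, 54442400 in MT, 21341100 in si-NC and 14592500 in si-hnRNPL. These sums run over 61630 entries, unnamed units included, in each total RNA library and over 24992 in each polyA library. In the polyA libraries they are not strictly read counts, so they give depth only roughly. The marker genes followed the labels: all 6 myotube markers were higher in MT than in MB, with a median log2 change of 6.4 and summed levels of 112 FPKM in MB, 1269.7 in MT, 2007 in si-NC and 2817 in si-hnRNPL. Of 7 cycling myoblast genes, 5 were lower in MT and Myod1 was higher. Of the neuron markers, Stmn2 stood at 37.9, 10.4, 17.6 and 15.5 FPKM in MB, MT, si-NC and si-hnRNPL, the other 5 at 0.163 or less, and Gad1 was listed at 0 in all 4. The 5 glia markers summed to between 0.632 and 0.958 FPKM. The siRNA target Hnrnpl stood at 95.1 FPKM (92.7 to 97.5) with the control siRNA and 85.9 (83.1 to 88.7) with the targeting one, a ratio of 0.904 (0.867 to 0.942) that did not pass the threshold used below.

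The first comparison, MT over MB in total RNA, asked which channel genes differ between growing myoblasts and myotubes. Changes are given as log2((FPKM + 1) ratio), which understates the change of low genes, and a gene was called at an absolute value of 0.58 or more. This is the fold cutoff of the study's methods, applied here after 1 was added to each FPKM. For low genes the calls can therefore differ from those on plain FPKM. Of the 7 members, 4 were called higher in MT (Kcnn3, Kcnj2, Scn4a and Kcnh1) and 0 lower, where 10.4% of the 18624 named entries above 0 in either library were called higher and 18.3% lower. Among the 11816 entries that reached FPKM 1 in either library, 15.4% were called higher and 28.6% lower. Kcnj2, Kcnn3 and Scn4a were in that set, but Kcnn3 and Scn4a reached it through MT alone, so their calls there carry no weight as a count. The other 3 members, Clcn1, Kcna7 and Kcnj11, lay below the FPKM of 0.495 that is the least able to reach 0.58 against 0, so they could not be called in either direction. Kcnn3, Scn4a and Kcnh1 lay below it in MB, so they could only be called higher. The members were also chosen with earlier results of these data known, so 4 of 7 beside 10.4% is not read as an enrichment. In RNA from whole cultures, fewer cells of a type and less RNA per cell cannot be told apart.

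**Figure D1:**
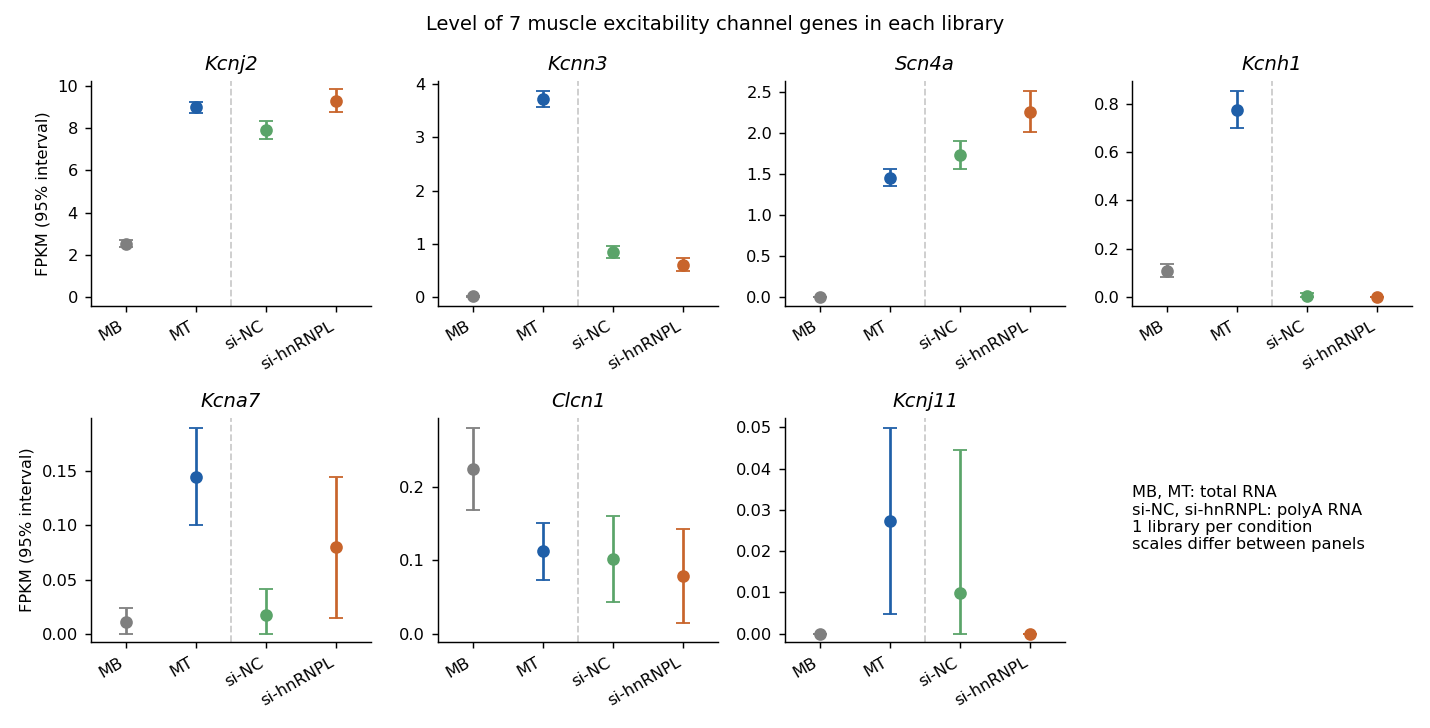
FPKM of each of the 7 channel genes (y axis, its own scale in each panel) in the MB, MT, si-NC and si-hnRNPL libraries, points with the 95% interval of Cufflinks, 1 library per condition. Kcnj2 reaches 8.99 FPKM in MT and Kcnj11 stays at or under 0.0273 in all 4 libraries, and the dashed line parts total RNA from polyA RNA.

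Scn4a encodes the pore-forming sodium channel of adult skeletal muscle. It was listed at 0 in MB, where 3 fragments would have given 0.00563 FPKM, and stood at 1.46 FPKM (1.35 to 1.56) in MT, 1.74 (1.56 to 1.91) with si-NC and 2.26 (2.01 to 2.51) with si-hnRNPL. It was thus listed above 0 in each library from cells in DM and at 0 in myoblasts. The log2 change from MB to MT was 1.30 (1.24 to 1.36). No fold is given, since the MB value was 0.

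Within its family Scn4a was a minor part. Of the summed FPKM of 10 sodium channel alpha subunits, Scn4a held 0% in MB, 9.52% in MT, 9.39% in si-NC and 14.5% in si-hnRNPL. It ranked 2 of the 10 in MT and 3 in each polyA library. The family sum was 3.48 FPKM in MB, 15.3 in MT, 18.5 in si-NC and 15.6 in si-hnRNPL.

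Clcn1 encodes the chloride channel that carries most of the resting chloride conductance of mature muscle. It stood at 0.225 FPKM (0.168 to 0.281) in MB, 0.112 (0.0732 to 0.151) in MT, 0.102 (0.0427 to 0.160) with si-NC and 0.0783 (0.0144 to 0.142) with si-hnRNPL. MB was above MT, and their intervals did not overlap. The MT over MB ratio was 0.50 (0.325 to 0.769) on 63.0 implied fragments in MB and 33.0 in MT. On the log2 scale, where adding 1 shrinks the difference of a gene this low, it was -0.14 (-0.22 to -0.05) and not past the threshold. That small value turned to 0.09 when the median shift of genes at FPKM 1 or above in both libraries was subtracted. It was 0.05 when the trend with length and base composition of the exons was removed. With 0.1 and 0.01 added in place of 1, it was -0.61 and -0.94. Clcn1 lay below FPKM 1, where adding 1 shrinks any shift, and the median over all entries above 0 was -0.0049. The turn of sign after centring therefore cannot be read onto the ratio of 0.50. Of the 9 genes of the CLC family, Clcn1 held 0.300% of the summed FPKM in MB and 0.115% in MT.

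The total RNA tables also list assembled units with no gene name, and 2 of them lay inside Clcn1. The unit at chr6:42247069-42248268 stood at 0.325 FPKM in MB on 28 implied fragments and at 0.0553 in MT on 5. The unit at chr6:42261961-42263026 stood at 0.253 FPKM in MB on 19 implied fragments and at 0.0127 in MT on 1. Both were lower in MT, as was the FPKM of Clcn1 itself. No such unit lay inside the other 6 members, and 1 lay 2452 bases past the end of Kcnj2, at 0.0227 FPKM in MB and 0.119 in MT.

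Kcnj2, an inward rectifier that holds the resting potential of muscle, was the most abundant member in every library. It stood at 2.53 FPKM (2.38 to 2.69) in MB, 8.99 (8.71 to 9.27) in MT, 7.92 (7.51 to 8.34) with si-NC and 9.31 (8.75 to 9.87) with si-hnRNPL. It was the one member above an FPKM of 1 in myoblasts, and MT was above MB with intervals that did not overlap. The MT over MB ratio was 3.55 (3.32 to 3.80) and the log2 change was 1.5 (1.43 to 1.57), higher than in 95.8% of the entries that reached FPKM 1. Kcnj2 held 67.3% of the summed FPKM of 15 inward rectifier genes in MB, 75.7% in MT, 87.3% in si-NC and 90.5% in si-hnRNPL.

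Kcnj11 encodes the pore of the ATP-sensitive potassium channel, which needs a sulfonylurea receptor from Abcc8 or Abcc9. It was listed at 0 in MB and si-hnRNPL, and stood at 0.0273 FPKM (0.00471 to 0.0499) in MT and 0.00974 (0 to 0.0446) in si-NC. The MT value rests on 5.84 implied fragments and the si-NC value on 0.313, so no library held more than a trace. The receptor genes were as low: Abcc9 stood at 0.0166 FPKM in MB and 0.0587 in MT, and Abcc8 at 0.00252 and 0.0240.

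Kcnn3 encodes a small-conductance calcium-activated potassium channel, known in muscle from immature and denervated fibres. It stood at 0.0113 FPKM (0.00276 to 0.0199) in MB, 3.71 (3.56 to 3.86) in MT, 0.840 (0.726 to 0.954) with si-NC and 0.605 (0.486 to 0.724) with si-hnRNPL. MB was near 0, on 7 implied fragments, and MT was far above it. The MT over MB ratio was 328 (154 to 699), and the log2 change of 2.22 (2.17 to 2.27) was the largest of the 7 members.

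The Kcnn family differed in make-up between MB and MT. Kcnn4, the intermediate-conductance channel that proliferating cells express, fell by 2.6 on the log2 scale, from 35.5 FPKM (34.5 to 36.5) to 5.03 (4.63 to 5.43). Kcnn3 held 0.0311% of the summed FPKM of the 4 Kcnn genes in MB and 33.9% in MT, against 97.4% and 45.9% for Kcnn4. In the polyA libraries Kcnn3 held 8.44% in si-NC and 6.11% in si-hnRNPL. Kcnn1 was also called higher in MT, at 0.954 FPKM in MB and 2.22 in MT with a log2 change of 0.72.

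Kcna7 encodes a voltage-gated potassium channel of the Shaker family that is found in skeletal muscle. It stood at 0.0109 FPKM (0 to 0.0234) in MB, 0.145 (0.10 to 0.190) in MT, 0.0172 (0 to 0.0415) with si-NC and 0.0796 (0.0146 to 0.145) with si-hnRNPL. MT was above MB with intervals that did not overlap, while the polyA intervals overlapped. The MT over MB ratio was 13.4 with a counting interval of 4.27 to 67.4, on 3 implied fragments in MB and 42.0 in MT. The log2 change was 0.18 (0.12 to 0.24). Kcna7 had the highest FPKM of the 8 Kcna genes in MT, with 55.8% of a summed FPKM of 0.260, where Kcna3 led in MB with 87.8%. In MT the interval of Kcna7 overlapped that of Kcna3 (0.0509 to 0.153), so their order there is not resolved.

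Kcnh1 encodes a voltage-gated potassium channel of the ether-a-go-go family, known from myoblasts about to fuse. It stood at 0.109 FPKM (0.0809 to 0.136) in MB, 0.775 (0.699 to 0.851) in MT and 0.00401 (0 to 0.0162) in si-NC, and was listed at 0 in si-hnRNPL. MT was above MB with intervals that did not overlap, and each polyA library held under 1 implied fragment or none. The MT over MB ratio was 7.14 (5.43 to 9.38) and the log2 change was 0.68 (0.61 to 0.75), the smallest of the 4 called. That order comes from adding 1 to a low gene, since the plain ratio of Kcnh1 was above that of Kcnj2 (3.55). Kcnh1 had 57.2% of the summed FPKM of the 8 Kcnh genes in MT, whereas Kcnh2 led in MB with 82.5%, in si-NC with 92.6% and in si-hnRNPL with 96.5%.

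**Figure D2:**
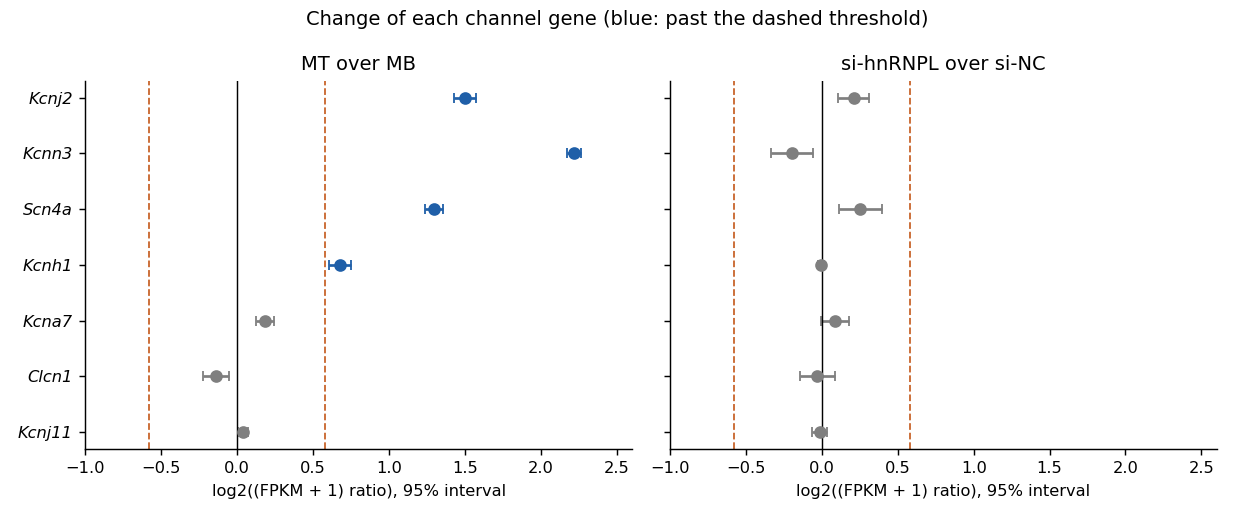
Log2((FPKM + 1) ratio) of each of the 7 channel genes (x axis) in MT over MB and in si-hnRNPL over si-NC, with 95% intervals from the Cufflinks intervals and dashed lines at the threshold of 0.58 in each direction. Kcnn3 (2.22), Kcnj2 (1.5), Scn4a (1.30) and Kcnh1 (0.68) lie past it in MT over MB, and no gene does in si-hnRNPL over si-NC.

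The log2 changes of MT over MB are set against a shifted background. The median over the 10791 entries that reached FPKM 1 in MB and in MT was -0.23. Relative to it the change was 1.73 for Kcnj2, which was in that set. The same subtraction gave 2.45 for Kcnn3, 1.52 for Scn4a and 0.91 for Kcnh1. Those members lay below FPKM 1 in MB and so outside the set. Adding 1 shrinks any shift at such a level, so their values after the subtraction may be too large. The intervals of Kcnj2, Kcnn3 and Scn4a did not overlap between MB and MT, a property shared by 86.1% of the entries that reached FPKM 1, close to the background for any gene at such a level. Those of Clcn1, Kcna7 and Kcnh1 did not overlap either. They lay below FPKM 1, where no such share was computed, so no weight is put on that. In the same pair of libraries 6 of 6 myotube markers were higher and 5 of 7 cycling markers lower, and their part in the channel values was not tested.

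Since FPKM is a level per length, members can be ranked within a library. In MB the order was Kcnj2, Clcn1, Kcnh1, Kcnn3 and Kcna7, with Scn4a and Kcnj11 listed at 0, and only the neighbours Kcnn3 and Kcna7 among those above 0 had overlapping intervals. In MT it was Kcnj2, Kcnn3, Scn4a, Kcnh1, Kcna7, Clcn1 and Kcnj11, where Kcna7 and Clcn1 overlapped. In si-NC it was Kcnj2, Scn4a, Kcnn3, Clcn1, Kcna7, Kcnj11 and Kcnh1, where the last 3 overlapped. The interval of Kcnj11 (0 to 0.0446) also overlapped that of Clcn1 (0.0427 to 0.160). In si-hnRNPL it was Kcnj2, Scn4a, Kcnn3, Kcna7 and Clcn1, the last pair overlapping, with Kcnj11 and Kcnh1 listed at 0. Clcn1 thus moved from rank 2 in MB to rank 6 in MT.

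Set side by side, Kcnn3 stood at 3.71 FPKM in MT and 0.840 in si-NC, and Kcnh1 at 0.775 and 0.00401. Kcnj2 stood at 8.99 and 7.92 FPKM in the same pair of libraries, and Scn4a at 1.46 and 1.74. The MT and si-NC libraries differ in time in DM (72 h and 48 h), in RNA selection, in library kit and in siRNA transfection, which cannot be told apart, so no comparison of these values is made.

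The second comparison, si-hnRNPL over si-NC, asked which channel genes differ when hnRNPL is targeted in differentiating cells. The Hnrnpl message was itself only slightly lower in the library labelled si-hnRNPL (ratio 0.904, not past the threshold). A knockdown was thus not evident at the RNA level in these values. The paper checked the protein itself by immunoblot in cells given these siRNAs and kept 48 h in DM, and describes hnRNPL as reduced. The values used here hold no protein measurement, so the differences below are between 2 libraries as labelled. Of the 7 members, 0 were called higher and 0 lower, where 1.03% of the 16767 named entries above 0 were called higher and 0.62% lower, so a count of 0 of 7 lies near the background. Among the 11370 entries that reached FPKM 1 in either library, 1.44% were called higher and 0.888% lower. Clcn1, Kcna7, Kcnj11 and Kcnh1 were too low in both libraries to be called.

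The 3 more abundant members had small differences. Scn4a, at 1.74 FPKM with si-NC and 2.26 with si-hnRNPL, had a ratio of 1.30 (1.12 to 1.51) and a log2 difference of 0.25 (0.11 to 0.40). Kcnj2, at 7.92 and 9.31 FPKM, had a ratio of 1.18 (1.09 to 1.27) and a log2 difference of 0.21 (0.11 to 0.31). Kcnn3, at 0.840 and 0.605 FPKM, had a ratio of 0.720 (0.567 to 0.915) and a log2 difference of -0.20 (-0.34 to -0.06). Scn4a and Kcnj2 were thus slightly higher and Kcnn3 slightly lower in the library labelled si-hnRNPL, and the intervals did not overlap for any of these 3. Of the entries that reached FPKM 1, 33.6% had intervals that did not overlap in this contrast, and 89.5% had a lower log2 value than Scn4a, 85.4% than Kcnj2 and 15.4% than Kcnn3, which itself lay below FPKM 1.

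The low members gave wide ranges. Kcna7 had a si-hnRNPL over si-NC ratio of 4.63 on 1.99 and 6 implied fragments. Its approximate interval of 0.828 to 46.9 treats these as counts, which in the polyA libraries they are not strictly. Clcn1 had a ratio of 0.772 (0.284 to 2.1). Neither difference was detectable at this depth, and Kcnj11 and Kcnh1 stood on under 1 implied fragment in si-NC. Among the myotube markers Acta1 (log2 0.61) and Ckm (0.71) were higher in the same contrast and, among the cycling genes, Mki67 (-0.62) and Top2a (-0.60) were lower. Their part in the values of Scn4a, Kcnj2 and Kcnn3 was not tested.

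The rest of the excitability genes were followed by 7 family lists of 124 genes in all. In MT over MB, 99 of them were above 0 in either library, of which 12 were called higher and 6 lower, shares to be read beside the backgrounds of 10.4% and 18.3%. The median log2 change of the 99 was 0.0081, beside -0.0049 over all entries above 0. Of the 30 that reached FPKM 1, 9 were higher and 6 lower, with a median of 0.11 beside -0.20 over all such entries. In si-hnRNPL over si-NC, 0 of the 74 genes above 0 passed the threshold in either direction. Over all entries above 0, 1.03% were called higher and 0.62% lower, so a count of 0 lies near the background. Only 28 of the 74 reached FPKM 1, and those below 0.495 in both libraries could not be called, so no lack of response is read from this count.

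**Figure D3:**
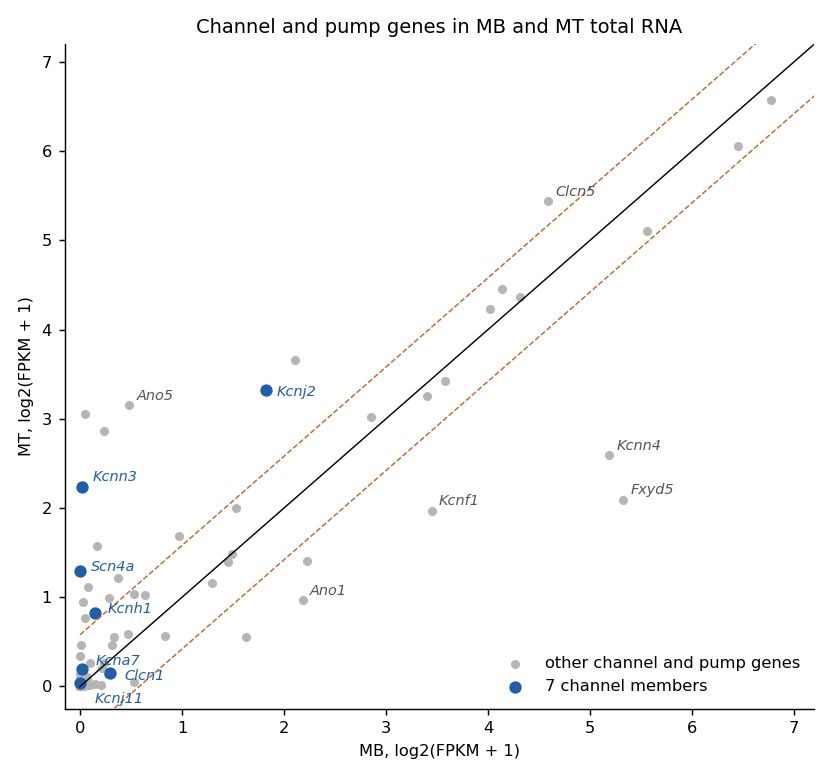
Log2(FPKM + 1) in MB (x axis) and in MT (y axis) for the 7 channel genes (blue) and the other channel and pump genes (grey), with the line of equal level and dashed lines at a log2 change of 0.58 in each direction. Kcnn3 (2.22) and Scn4a (1.30) lie on the left edge above the line, and Kcnn4 (-2.6) and Fxyd5 (-3.23) lie farthest below the line.

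Of 13 sodium channel genes above 0 beside Scn4a, 3 were called higher in MT and 0 lower, and only 3 reached an FPKM of 1. Scn7a, an atypical sodium channel, stood at 0.0572 FPKM in MB and 1.17 in MT, and Scn10a, known from sensory neurons, at 0.0180 and 0.933. Of 12 chloride channel genes, 2 were higher and 1 lower. Clcn5, an endosomal chloride-proton exchanger, was the highest of the 12 in MT but not in MB. It stood at 23.1 FPKM in MB and 42.3 in MT, a log2 change of 0.85. Ano5, which acts in muscle membrane repair, rose by 2.67, from 0.398 to 7.89 FPKM. Ano1, a calcium-activated chloride channel, fell by 1.22, from 3.55 to 0.955 FPKM.

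Of 13 inward rectifier and sulfonylurea receptor genes other than Kcnj2 and Kcnj11, 1 was higher in MT and 0 lower. It was Kcnj12, a close relative of Kcnj2, at 0.292 FPKM in MB and 1.32 in MT with a log2 change of 0.85. Of 32 voltage-gated potassium channel genes above 0, 3 were higher and 1 lower. Among those higher was Kcnc2, at 0.220 FPKM in MB and 0.991 in MT. Kcnf1, a silent subunit that forms no channel alone, fell by 1.48, from 9.91 to 2.92 FPKM.

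**Figure D4:**
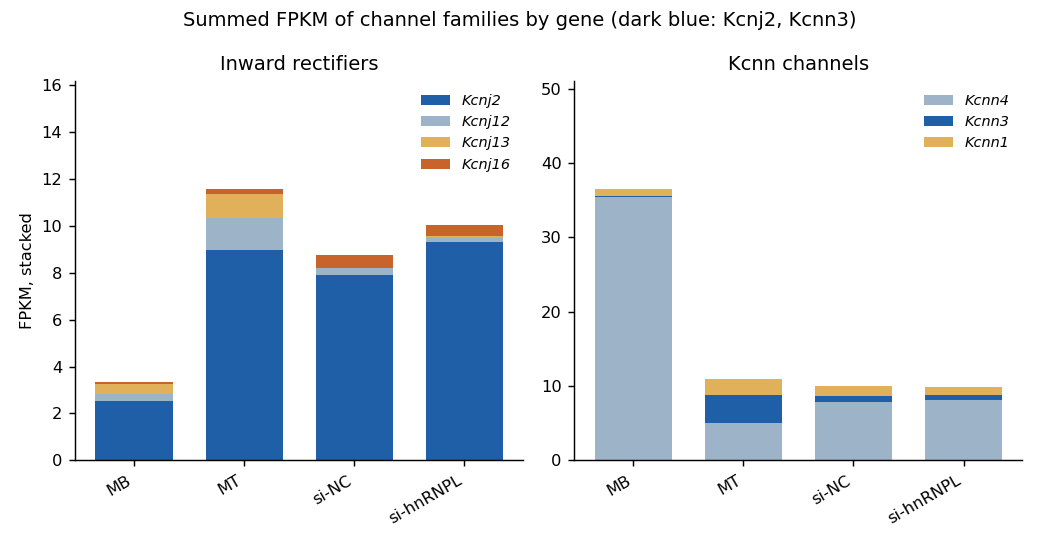
Stacked FPKM (y axis, its own scale in each panel) of the main inward rectifiers and Kcnn channels in the 4 libraries, with Kcnj2 and Kcnn3 in dark blue. Kcnj2 makes up most of each inward rectifier bar, and Kcnn3 is visible in MT (33.9% of the family) but not in MB (0.0311%).

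Of 9 two-pore potassium channel genes above 0, 0 were higher and 2 lower. Kcnk2, a mechanosensitive channel, stood at 2.09 FPKM in MB and 0.472 in MT, and Kcnk5, an acid-sensitive one, at 3.68 and 1.65. Of 11 sodium-potassium pump genes, 2 were higher and 1 lower. Fxyd1, a regulator of the pump, stood at 0.121 FPKM in MB and 1.98 in MT, and Fxyd5, of the same regulator family, fell by 3.23 from 39.1 to 3.27.

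Genes with the profile most like a member were sought over the 4 libraries by the Euclidean distance of log2(FPKM + 1), centred on each gene's mean, among 11671 genes that reached FPKM 1 in any library. For Scn4a they were Lmcd1 (distance 0.0288), Mvp (0.0375) and Mylk (0.0845). For Kcnj2 they were Syt8 (0.0488), Cd59a (0.102) and Ephb6 (0.110). For Kcnn3 they were Klhl24 (0.124), Myl2 (0.184) and Igdcc4 (0.191). With 4 libraries that also differ in RNA selection and depth, these are descriptions of likeness in the shape of the profile, not in level. The other 4 members never reached an FPKM of 1 and were not matched. Without centring, 0 of the 3 genes nearest to Scn4a, 1 of those for Kcnj2 (Cd59a) and 1 of those for Kcnn3 (Myl2) were the same.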

How the data were processed

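The MB and MT libraries measured total RNA after removal of ribosomal RNA, strand-specific, and the si-NC and si-hnRNPL libraries polyA RNA, 1 library per condition and 4 in all. Groups came from the sample labels. After trimming, the authors aligned reads to mm9 with TopHat2 and used Cufflinks for abundance. They deposited FPKM values, each with the bounds of a 95% interval. FPKM values are no counts, so no count test was run, and all per-sample columns were used (0 left out). The implied fragments of a value are (2 x FPKM / (upper bound - FPKM)) squared. Below 200 of these fragments, 91.5% of the values were whole (within 0.05) in MB and 91.3% in MT, but only 45.1% (si-NC) and 43.8% (si-hnRNPL) in the polyA libraries, where they are no read counts.

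Log2((FPKM + 1) ratios) were computed with Python 3.11.15, numpy 2.4.6, pandas 2.3.3 and scipy 1.17.1. Intervals of differences combine both half-widths in quadrature, and counting intervals are exact conditional binomial ones. The script was tested on simulated data. Starts in the tables were read as counted from 0, since the next base was the GENCODE start for 4755 of 9467 plus-strand genes and the stated base for 91. Clcn4 and Mymk are listed in the total RNA tables under older symbols at the same loci.

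The members, the family and marker lists and the threshold were chosen with earlier results of these data known. Named genes were all members, list genes that reached FPKM 1 in a contrast and passed 0.58 in it, the highest of each list in MT, the 3 nearest in profile to each member that reached FPKM 1, and Hnrnpl. Abcc8, Abcc9, Scn10a, Kcnc2, Kcna3, Kcnh2 and the marker genes named fall outside that rule and were chosen after their values were seen. Some list genes that the rule names are not reported here. Alternatives were other pseudocounts, a stricter threshold, an FPKM filter, centring, summed entries, and removal of trends with exon length and GC content.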

Additional observations from a re-analysis of the deposited data

How the results depend on the processing

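With a pseudocount of 0.1 or 0.01 in place of 1, 5 and 6 members were called higher in MT than in MB in place of 4, and 1 and 1 lower in place of 0. The member called lower was Clcn1 (-0.61 and -0.94), and Kcna7 (1.14 and 2.89) and, at 0.01, Kcnj11 (1.90) joined those higher. Kcna7 stood on 3 implied fragments in MB and 42.0 in MT, and Kcnj11 on 5.84 in MT with an FPKM of 0 in MB. In si-hnRNPL over si-NC, 1 member was higher at either pseudocount, Kcna7 (0.62 and 1.72), and at 0.01 1 was lower, Kcnj11 (-0.98). Of the other channel and pump genes in MT over MB, 23 were higher and 12 lower at 0.1, and 39 and 20 at 0.01, against 12 and 6. In si-hnRNPL over si-NC, 4 were higher and 2 lower at 0.1, and 11 and 13 at 0.01, against 0 and 0. Shares over all genes were computed with the pseudocount of 1 only. The counts of members and of other genes at 0.1 and 0.01 thus have no background and are not read as an enrichment. With an absolute log2 change of 1, 6 other genes were higher in MT and 3 members, without Kcnh1. The remaining 38 comparisons of counts stayed within 1.5 times, and 0 called values changed sign. Leaving out a replicate was not possible with 1 library per condition. No paired analysis was possible because each condition has 1 library.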
